A study of Mus musculus with 14 samples.

Results

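The 40 genes described here encode lysosomal hydrolases, their helper proteins and proteins of the lysosomal membrane, together with the transcription factors Tfeb and Tfe3. They were taken by name from the 46855 gene symbols of the deposited expression table, and all 40 were found and passed the filter on low values in every comparison. They fall into 11 proteases, 8 genes of glycosaminoglycan breakdown, 7 of sphingolipid and glycolipid breakdown, 5 of glycan and glycogen breakdown, 3 of sterol and lipid handling, 4 membrane proteins and 2 transcription factors. Whole ileum, the stretch of gut between jejunum and colon, was taken from wild-type mice of the inbred strain C57BL/6N, and its RNA was sequenced. Untreated mice gave 4 libraries at postnatal day 14 (P14) and 4 at day 24 (P24), ages that the series' title sets around weaning. Injected mice gave 3 libraries for phosphate-buffered saline (PBS) and 3 for recombinant mouse interleukin-22 (rmIl22), a cytokine with receptors on epithelium, dosed at 0.1 µg per g body weight in 100 µL of PBS. Per the labels' protocols these mice were injected on days 14 and 15 and killed on day 16, whereas the age field of the labels has day 14 under PBS and day 24 under rmIl22. The labels call the replicates biological and do not say whether a library came from 1 animal.

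Lysosomes break down proteins, complex sugars and lipids in an acidic lumen. Their soluble enzymes are made in the endoplasmic reticulum, tagged with mannose 6-phosphate in the Golgi and delivered by sorting receptors, and a proton pump keeps the lumen acid. Transcription factors of the MiT/TFE family, among them TFEB and TFE3, bind E-box elements with the core CACGTG in promoters of many lysosomal genes. In suckling rodents the enterocytes of the ileum take up milk macromolecules by endocytosis and digest them in a large lysosomal vacuole, a cell state that is lost around weaning.

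Levels are in TPM, which is corrected for the length of the gene and sums to an equal total per library, and the reads recovered from it came to 35.6 to 46.5 M in genes per library. Every member was read in every library, with at least 171 reads. All 6 ileum markers and all 10 epithelial markers listed were detected. rmIl22 library 2 stood apart: a chi-square per degree of freedom between its reads and those of the other rmIl22 libraries was 203.0 and 232.9, against 28.3 to 71.3 for the other 16 pairs within a group. Sex-linked transcripts were uneven. P14 libraries 1 and 2, P24 library 1, all PBS libraries and rmIl22 library 1 had Y-linked transcripts, and the other libraries had Xist. Values are given below in the order of library numbers, which are 1, 2, 4 and 5 for P14, 1, 2, 6 and 8 for P24, and 1 to 3 for PBS and for rmIl22. For 13 members an exon overlaps an exon of another gene in GENCODE vM21, on the same strand for Ctsd, Ctsl and Glb1, and reads of such genes may be shared between them. In whole tissue, fewer cells of a type and less RNA per cell cannot be told apart.

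Promoter sequences are shown first, so that the core CACGTG can be read in them. RefSeq windows from 250 bases before to 50 bases after a start site (build GRCm38.p6, the same assembly as mm10) were found for 34 members, in 40 windows. The windows were searched for CACGTG, which reads the same on both strands. It was found in 12 of the 40 windows, or 30%, and in 7.15% of all 32851 windows of the same length. Counted by gene, this was 12 of 34 members, or 35.3%, beside 8.09% of 27025 genes. Some genes have more than 1 window and the members were chosen, so no interval is given. The genes with a match were Ctsa, Ctsd, Ctsf, Ctsl, Lgmn, Naglu, Sgsh, Arsa, Glb1, Gaa, Lamp1 and Mcoln1. The longer form TCACGTGA, which holds CACGTG, was in 3 windows (7.5% against 0.974% of all windows). The 10-base palindrome of the CLEAR element, which holds both, was in 0 of 40 (0.326% of all windows). The members without a window in the table were Npc1, Ctsb, Galns, Hgsnat, Asah1 and Ctsh. A match is a description of letters and not of binding.

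The stretches below run from 150 bases before the start site towards it, 5′ to 3′ on the gene's strand, and end before any exon that GENCODE vM21 gives the gene. CACGTG is in capitals. Lgmn had the largest fall with age, Glb1 fell over 10-fold, Lamp1 held the most matches, and Mcoln1 is the lysosomal channel. Hexa fell about as far as Glb1 and Ctsc rose, and neither window held a match.
Lgmn (chr12:102439093-102439242, minus strand): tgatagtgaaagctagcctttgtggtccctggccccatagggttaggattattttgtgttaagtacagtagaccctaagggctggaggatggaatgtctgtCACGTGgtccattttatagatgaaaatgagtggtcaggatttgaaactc
Glb1 (chr9:114400928-114401075, plus strand): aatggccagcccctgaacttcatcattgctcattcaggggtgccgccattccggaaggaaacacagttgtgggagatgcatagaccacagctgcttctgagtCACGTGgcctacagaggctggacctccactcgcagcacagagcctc
Lamp1 (chr8:13159011-13159160, plus strand): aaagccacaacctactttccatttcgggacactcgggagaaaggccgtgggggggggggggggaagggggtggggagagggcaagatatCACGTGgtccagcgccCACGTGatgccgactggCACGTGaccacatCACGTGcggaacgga
Mcoln1 (chr8:3500369-3500456, plus strand): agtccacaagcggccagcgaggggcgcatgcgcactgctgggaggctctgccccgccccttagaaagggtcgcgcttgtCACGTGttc
Hexa (chr9:59539390-59539539, plus strand): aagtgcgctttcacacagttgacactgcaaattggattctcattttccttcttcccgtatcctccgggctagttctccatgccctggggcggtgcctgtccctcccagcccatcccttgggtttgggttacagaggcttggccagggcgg
Ctsc (chr7:88277935-88278084, plus strand): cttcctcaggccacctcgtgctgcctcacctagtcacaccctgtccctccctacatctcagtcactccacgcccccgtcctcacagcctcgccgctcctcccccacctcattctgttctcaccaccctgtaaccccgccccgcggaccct
The Lamp1 stretch carried 4 matches, whose first bases lay 61, 45, 28 and 15 bases before the start site. Mcoln1 had matches at 71 and 45 bases before the start, of which the second lay in an annotated exon and is not shown. The Glb1 match began 48 bases before the start. Lgmn has 2 windows, and the match, 49 bases before the start, belongs to the start site that lies further into the gene, so the stretch shown is inside the gene and outside its exons.

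The first comparison asks how lysosomal transcripts differ between suckling and older ileum. At P24, 33 of the 40 members were lower than at P14, 1 was higher and 6 did not pass the test (limma on log2(TPM + 1), adjusted p under 0.05). Among all 14651 genes tested, 43.7% were lower and 14.6% were higher. The median log2 fold change was -1.76 over the members and -0.25 over all genes, and 30 members were at least 2-fold lower, 18 at least 4-fold and 7 at least 10-fold, as ratios of mean TPM. The groups did not overlap for 34 members that were lower, beside 39.4% of all genes, and for 1 that was higher, beside 13.0%. Dividing each library by its median ratio shifted the median of all genes to 0.01 and the calls over all genes from 6400 lower and 2146 higher to 4267 lower and 4245 higher. On that scale 32 members were lower and 3 higher, beside 29.0% and 28.9% of all genes, and the median over the members was -1.499.

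**Figure D1:**
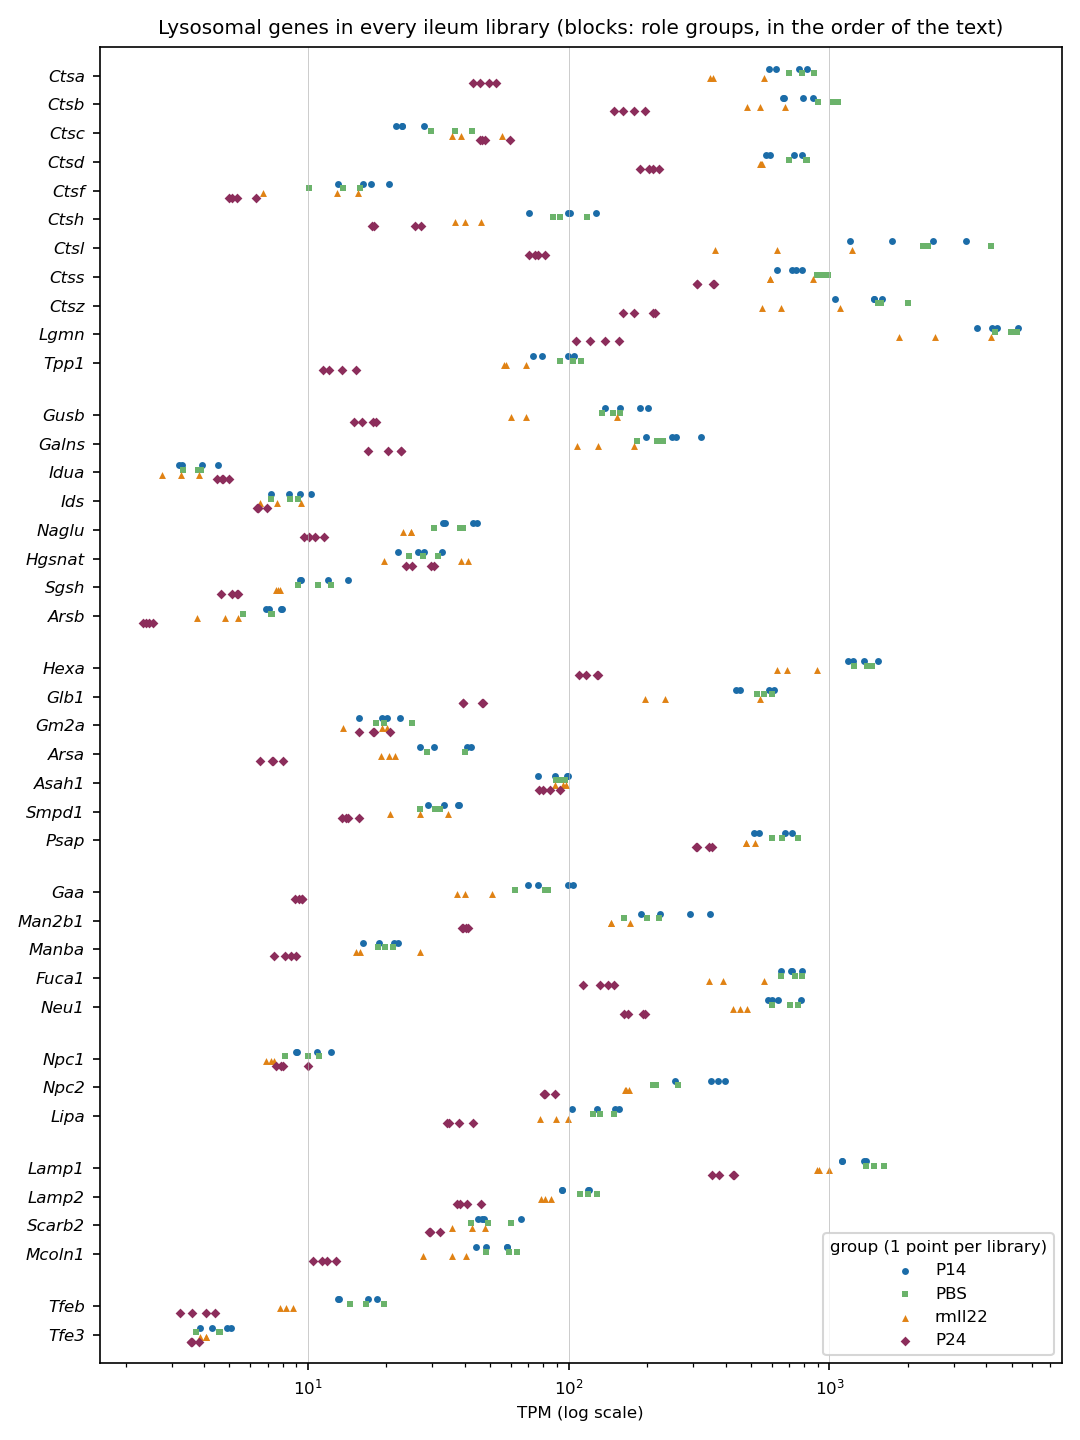
TPM of each of the 40 members on a logarithmic axis, with 1 point per library and a row per gene in blocks by role. Most rows have the P24 points far to the left and the rmIl22 points between the P24 and the other points, while Ctsc runs the other way and Asah1, Hgsnat and Gm2a stay together.

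Among the proteases, 10 of 11 fell with age and Ctsc rose. Legumain (Lgmn, chr12:102394084-102439813, minus strand), an asparagine-specific protease that also processes cathepsins, was the most abundant member at P14, with 4189, 5296, 4385 and 3691 TPM. Its P24 values were 107, 155, 137 and 121 TPM. The lowest P14 library was thus far above the highest P24 library, and the mean was 33.8 times lower (a log2 fold change of -5.07, SE 0.14, limma adjusted p = 1.93e-10). Cathepsin L (Ctsl, chr13:64359337-64370890, minus strand), a cysteine protease, measured 1195, 1735, 2487 and 3346 TPM at P14, the widest spread among the leading members. At P24 it was 73.9, 80.9, 70.3 and 76.4 TPM, and the 4 older libraries lay close together (a log2 fold change of -4.74, SE 0.25, limma adjusted p = 2.78e-08). Cathepsin A (Ctsa, chr2:164832873-164841032, plus strand), a carboxypeptidase that also protects beta-galactosidase and neuraminidase 1 in a shared complex, went from 588, 817, 762 and 622 TPM to 49.5, 52.7, 45.7 and 42.99 TPM. This was a 14.6-fold lower mean (a log2 fold change of -3.83, SE 0.12, limma adjusted p = 4.71e-10).

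Cathepsin Z (Ctsz, chr2:174427493-174439039, minus strand), a carboxypeptidase, was also among the 5 most abundant members. It fell from 1046, 1479.9, 1595 and 1478 to 210.4, 214, 178 and 162 TPM (a log2 fold change of -2.86, SE 0.15, limma adjusted p = 2.33e-08). Tripeptidyl peptidase 1 (Tpp1, chr7:105744811-105752235, minus strand), which removes tripeptides from protein ends, fell from 72.8, 105, 99.3 and 78.7 to 12.1, 15.2, 11.4 and 13.5 TPM (a log2 fold change of -2.67, SE 0.13, limma adjusted p = 1.93e-08). The groups were well separated for both. Cathepsin B (Ctsb, chr14:63122462-63145923, plus strand) measured 668, 861, 788 and 661 TPM at P14 and 178, 195, 162 and 149 TPM at P24 (a log2 fold change of -2.11, SE 0.12, limma adjusted p = 6.31e-08). Cathepsin H (Ctsh, chr9:90054152-90076089, plus strand), an aminopeptidase, measured 70.1, 99.7, 102 and 128 TPM and then 25.6, 17.7, 17.96 and 27.2 TPM (a log2 fold change of -2.12, SE 0.19, limma adjusted p = 2.43e-06). Both were thus lower by a similar factor of 4 to 5 in mean TPM. The aspartic protease cathepsin D (Ctsd) fell by 1.69 on the log2 scale and cathepsin F (Ctsf) by 1.45. Cathepsin S (Ctss), known for processing the invariant chain in antigen-presenting cells, fell least, from 719 ± 65.5 to 335 ± 28.3 TPM (SD, n = 4 and 4; a log2 fold change of -1.10, SE 0.11, limma adjusted p = 5.1e-06).

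Cathepsin C (Ctsc, chr7:88278085-88310888, plus strand), singled out after its values were seen, is a dipeptidyl peptidase known for activating granzymes and other serine proteases of immune cells. It was the only member of the 40 that passed as higher in this comparison. Its values were 23.00, 21.8, 27.8 and 22.98 TPM at P14 and 47.8, 59.5, 45.5 and 46.7 TPM at P24, so every older library was above every younger one (a log2 fold change of 1.03, SE 0.11, limma adjusted p = 1.44e-05). Some immune transcripts rose between the same groups. Granzyme A (Gzma), a serine protease of cytotoxic lymphocytes, rose from 0.763 ± 0.274 to 9.25 ± 4.92 TPM (a log2 fold change of 2.42, SE 0.30, limma adjusted p = 3.75e-05). Of 18 macrophage and dendritic cell markers tested, 3 were higher, most of all Cd14 (2.18), and 4 lower, most of all Csf1r (-1.92). Over all genes 14.6% were higher and 43.7% lower. The summed level of the 20 markers listed was 357 to 503 TPM at P14 and 372 to 580.3 TPM at P24, with 0 of them at 0 in every library. The part of immune cells in the rise of Ctsc was not tested.

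Glycosaminoglycan enzymes fell unequally, with 6 of 8 passing as lower. Galns (chr8:122578242-122611463, minus strand), the sulfatase of keratan and chondroitin sulfate, measured 249, 322, 257 and 198 TPM at P14 and 22.8, 22.6, 20.3 and 16.98 TPM at P24, a mean 12.4 times lower (a log2 fold change of -3.56, SE 0.14, limma adjusted p = 3.17e-09). Beta-glucuronidase (Gusb, chr5:129989011-130003049, minus strand) went from 158, 201, 187 and 138 to 18.2, 17.8, 16.1 and 15.05 TPM, 10.2 times lower (a log2 fold change of -3.26, SE 0.12, limma adjusted p = 1.7e-09). Naglu (chr11:101070012-101077672, plus strand), the alpha-N-acetylglucosaminidase of heparan sulfate breakdown, went from 32.9, 44.4, 42.8 and 33.4 to 11.5, 10.6, 10.1 and 9.69 TPM (a log2 fold change of -1.77, SE 0.12, limma adjusted p = 2.25e-07). None of the 3 had overlapping groups. The other enzymes of heparan sulfate breakdown had smaller differences. The sulfamidase Sgsh fell from 11.3 ± 2.37 to 5.12 ± 0.338 TPM and the sulfatase Ids from 8.82 ± 1.29 to 6.56 ± 0.287 TPM (SD, n = 4 and 4), and Ids no longer passed on median-scaled TPM (log2 fold change -0.11) or after quantile normalisation (-0.10). The acetyltransferase Hgsnat measured 27.3 ± 4.38 and 27.2 ± 3.28 TPM, a log2 fold change of 0.00 with an SE of 0.13 (limma adjusted p = 0.987). The iduronidase Idua measured 3.73 ± 0.616 and 4.70 ± 0.203 TPM (a log2 fold change of 0.28, SE 0.12, limma adjusted p = 0.0593). On median-scaled TPM both Idua (0.52) and Hgsnat (0.29) passed as higher. Arylsulfatase B (Arsb), which acts on dermatan and chondroitin sulfate, fell by 1.30 on the log2 scale.

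Of the 7 sphingolipid and glycolipid genes 5 fell. Beta-galactosidase (Glb1, chr9:114401076-114474898, plus strand), which removes galactose from gangliosides and keratan sulfate, measured 455, 613, 586 and 437 TPM at P14 and 46.7, 47.1, 39.5 and 39.3 TPM at P24 (a log2 fold change of -3.56, SE 0.13, limma adjusted p = 1.27e-09). Hexa (chr9:59539540-59565109, plus strand), the alpha subunit of beta-hexosaminidase, measured 1229, 1539, 1355 and 1178 TPM and then 128, 129, 116 and 109 TPM (a log2 fold change of -3.44, SE 0.11, limma adjusted p = 5.22e-10). Arylsulfatase A (Arsa, chr15:89472476-89477425, minus strand), the sulfatase of sulfatide, measured 30.4, 42.3, 40.9 and 26.8 TPM and then 7.25, 8.00, 7.35 and 6.54 TPM (a log2 fold change of -2.10, SE 0.14, limma adjusted p = 2.82e-07). Means were thus 12.1, 10.97 and 4.82 times lower, with no overlap. Gm2a, the activator protein that presents ganglioside to beta-hexosaminidase, did not pass, with 19.4 ± 2.85 and 17.96 ± 2.02 TPM (a log2 fold change of -0.10, SE 0.12, limma adjusted p = 0.49). Acid ceramidase (Asah1) also did not pass, with 90.9 ± 10.8 and 83.5 ± 6.79 TPM (a log2 fold change of -0.12, SE 0.11, limma adjusted p = 0.363), and both had a small positive sign on median-scaled TPM (0.18 and 0.17). Acid sphingomyelinase (Smpd1) fell from 34.4 ± 4.25 to 14.3 ± 0.931 TPM. Prosaposin (Psap), the precursor of the saposin activator proteins, fell from 611 ± 99.4 to 329.8 ± 24.5 TPM and was among the 3 most abundant members at P24.

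All 5 genes of glycan and glycogen breakdown fell. Acid alpha-glucosidase (Gaa, chr11:119267887-119285454, plus strand), which degrades glycogen, went from 76.4, 104, 99.2 and 69.7 to 8.93, 9.52, 9.48 and 9.23 TPM (a log2 fold change of -3.08, SE 0.13, limma adjusted p = 3.54e-09). Alpha-mannosidase (Man2b1, chr8:85083270-85098282, plus strand) went from 225, 347, 292 and 189.7 to 40.3, 41.2, 39.2 and 39.1 TPM (a log2 fold change of -2.65, SE 0.16, limma adjusted p = 8.97e-08). Alpha-fucosidase (Fuca1, chr4:135920735-135940311, plus strand) went from 652, 785, 714 and 716 to 149, 141, 132 and 114 TPM (a log2 fold change of -2.42, SE 0.11, limma adjusted p = 6.86e-09). The P24 values of Gaa and Man2b1 each lay within a narrow band while their P14 values varied widely. Neuraminidase 1 (Neu1), the sialidase of the complex with cathepsin A and beta-galactosidase, fell 3.60-fold, against 14.6-fold and 12.1-fold for its partners. Beta-mannosidase (Manba) fell from 19.6 ± 2.70 to 8.29 ± 0.671 TPM (SD, n = 4 and 4).

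In sterol and lipid handling, both soluble proteins fell and the membrane protein did not pass. Npc2 (chr12:84754562-84773152, minus strand), the soluble carrier that hands cholesterol to NPC1, measured 375, 399, 350.3 and 255 TPM at P14 and 88.4, 80.7, 80.2 and 81.2 TPM at P24 (a log2 fold change of -2.03, SE 0.13, limma adjusted p = 1.68e-07). Lysosomal acid lipase (Lipa, chr19:34492318-34527474, minus strand), which splits cholesteryl esters and triglycerides, measured 103, 151, 155 and 129 TPM and then 37.99, 43.05, 34.7 and 34.2 TPM (a log2 fold change of -1.80, SE 0.13, limma adjusted p = 5.94e-07). Npc1, the cholesterol transporter of the lysosomal membrane, measured 10.3 ± 1.57 and 8.36 ± 1.11 TPM (a log2 fold change of -0.27, SE 0.13, limma adjusted p = 0.085).

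The 4 membrane proteins all fell. The cation channel Mcoln1 (chr8:3500457-3515232, plus strand) measured 44.2, 58.1, 57.97 and 48.3 TPM at P14 and 11.3, 12.8, 10.5 and 11.8 TPM at P24 (a log2 fold change of -2.07, SE 0.11, limma adjusted p = 3.61e-08). Lamp1 (chr8:13159161-13175338, plus strand), a major glycoprotein of the membrane, measured 1116, 1380.2, 1359 and 1114 TPM and then 425, 431, 378 and 355 TPM (a log2 fold change of -1.64, SE 0.12, limma adjusted p = 4.05e-07). Lamp2 (chrX:38401357-38456454, minus strand), its relative with a role in autophagy, measured 93.9, 119, 118 and 93.9 TPM and then 40.9, 45.9, 37.4 and 38.4 TPM (a log2 fold change of -1.36, SE 0.11, limma adjusted p = 1.46e-06). All 3 had separate groups, and Lamp1 became the most abundant member at P24. Scarb2, the receptor that carries glucocerebrosidase to the lysosome, fell least, from 51.1 ± 9.67 to 29.97 ± 1.44 TPM (a log2 fold change of -0.74, SE 0.12, limma adjusted p = 0.000314).

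The transcription factors differed from each other. Tfeb (chr17:47737030-47792419, plus strand) measured 13.1, 16.9, 18.4 and 13.1 TPM at P14 and 4.40, 3.23, 3.60 and 4.06 TPM at P24, a mean 4.03 times lower with no overlap (a log2 fold change of -1.76, SE 0.13, limma adjusted p = 7.09e-07). Tfe3 (chrX:7762560-7775202, plus strand) measured 3.87, 4.89, 5.05 and 4.30 TPM and 3.55, 3.84, 3.58 and 3.56 TPM. The groups just failed to overlap but the difference did not pass (a log2 fold change of -0.25, SE 0.11, limma adjusted p = 0.0692), and after quantile normalisation it was 0.02. Of the other family members, Tfec fell from 66.7 ± 8.97 to 0.545 ± 0.0862 TPM (a log2 fold change of -5.45, SE 0.11, limma adjusted p = 2.01e-11) and Mitf did not pass (1.29 ± 0.269 and 0.845 ± 0.152 TPM). These values are transcript levels and do not speak to the nuclear entry of the proteins.

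**Figure D2:**
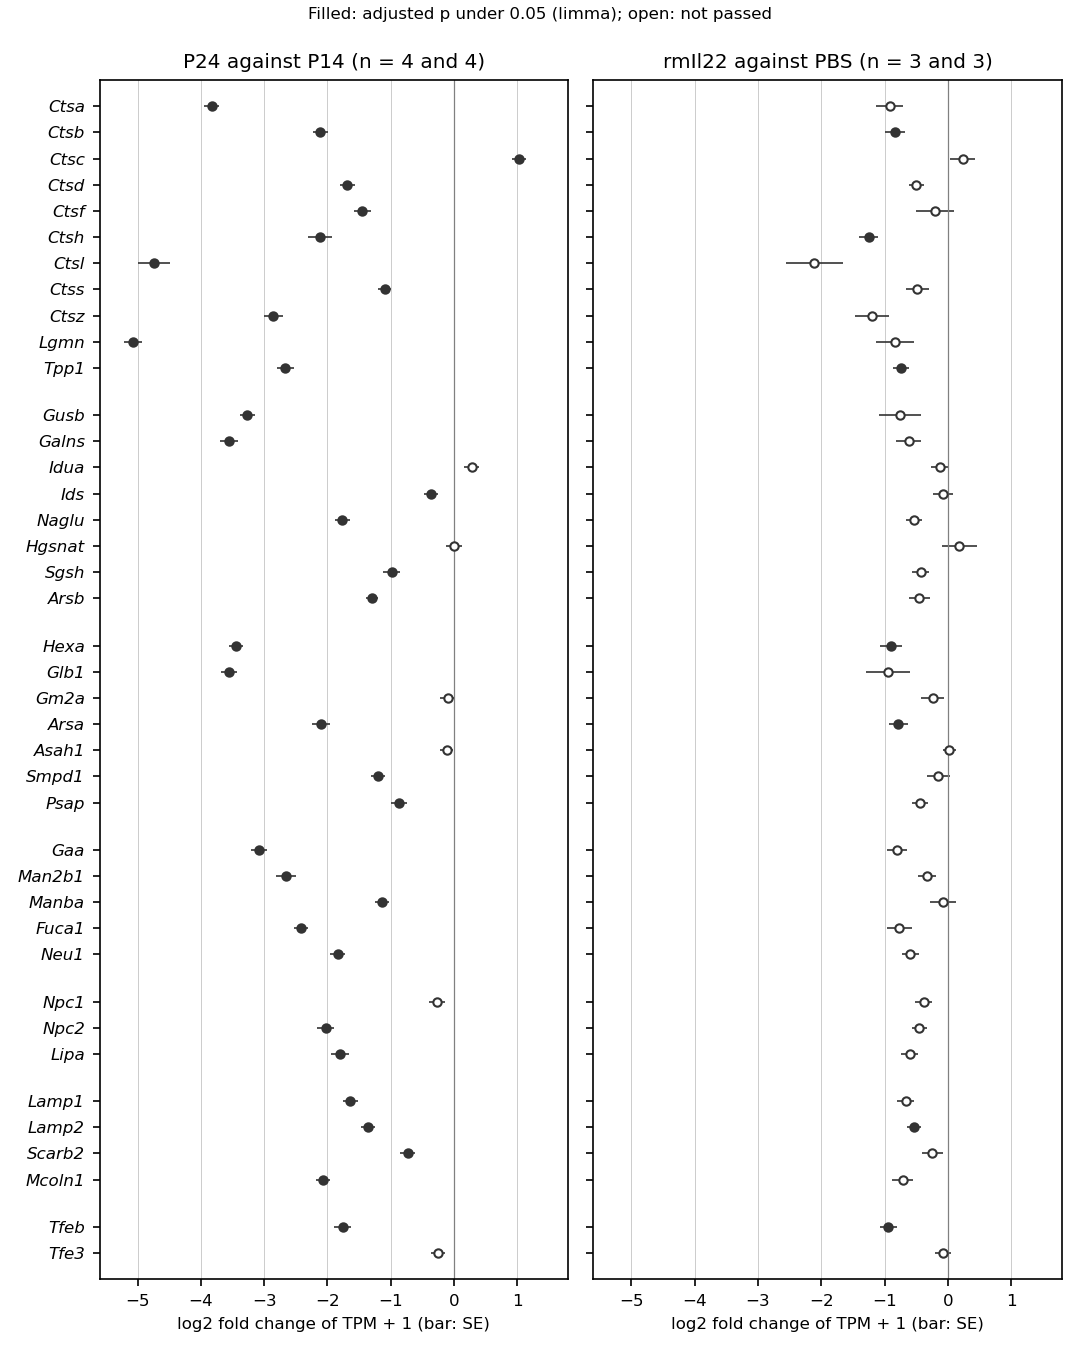
Log2 fold change of TPM + 1 with its standard error for each member, P24 against P14 on the left and rmIl22 against PBS on the right, with filled points for adjusted p under 0.05. On the left 33 filled points lie below 0 and Ctsc above it, and on the right 7 filled points lie below 0.

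The median log2 difference between the ages over the 40 members was -1.66 within the libraries with Y-linked transcripts (2 at P14, 1 at P24) and -1.76 within those with Xist (2 at P14, 3 at P24). The authors' deposited table for this comparison gave 32 members lower and 2 higher (Ctsc, 1.38, and Idua, 0.66, as log2 fold changes), beside 20.1% and 20.2% of its 23529 genes. Its largest member value was -4.75 for Lgmn.

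Members with higher levels before P24 had larger falls. Against their level in the PBS libraries, which this comparison does not use, the age fold changes of the 40 members had a Spearman correlation of -0.66 (Pearson -0.68), and over all 14651 genes it was -0.05 (Pearson -0.09). This is a description across genes that share the same libraries. The summed TPM of the 40 members was 15354, 19872, 19063 and 17315 at P14 and 3063, 3154, 2827 and 2734 at P24. It thus went from 1.54% to 1.99% of all TPM to 0.273% to 0.315%. Lgmn alone made up 21.3% to 27.3% of the members' sum at P14 and 3.48% to 4.92% at P24. The ratio of the mean sums, P24 over P14, was 0.164 with Lgmn and 0.208 without it.

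**Figure D3:**
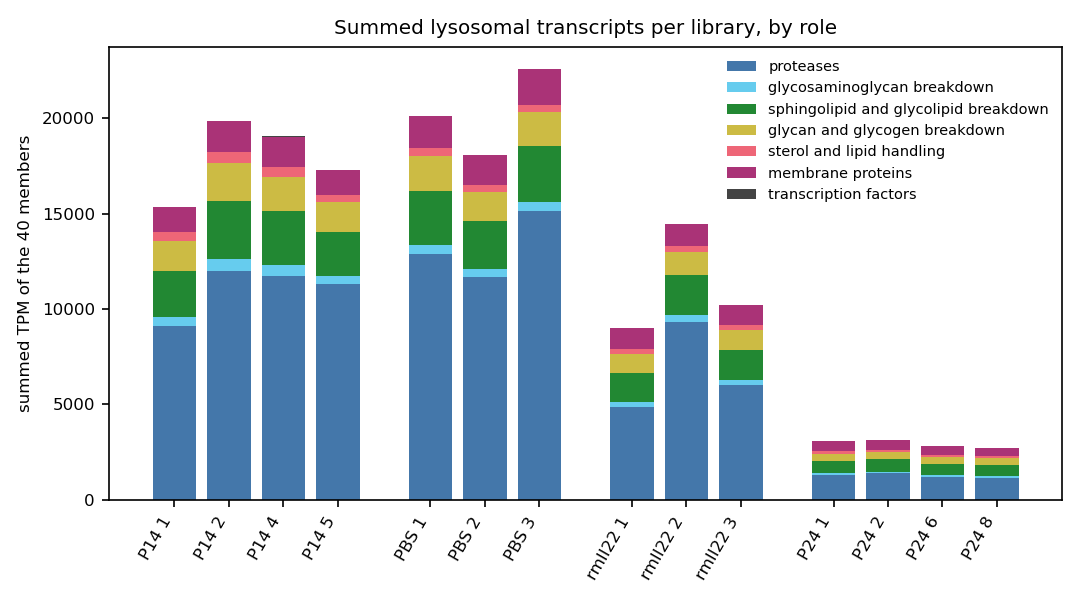
Summed TPM of the 40 members in each library, stacked by role, on an axis from 0. P14 and PBS libraries reach 15354 to 22616 TPM, rmIl22 libraries 9008 to 14453 TPM and P24 libraries 2734 to 3154 TPM, and proteases form the largest block in each.

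Members with CACGTG in a RefSeq window were compared with those whose windows lack it, as a description. All 12 with a match were lower at P24, with a median log2 fold change of -2.09 and a range of -5.07 to -0.98. Of the 22 without a match 18 were lower and 1 was higher, with a median of -1.33 and a range of -3.44 to 1.03. The ranges overlap widely, and Hexa, without a match in the stretch shown above, fell about as far as Glb1 with a match. After rmIl22 the median was -0.75 over the 12 (1 called lower) and -0.45 over the 22 (4 called lower). The part of the motif in these values was not tested.

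The rest of the lysosomal machinery was read through lists grouped by role. They were chosen with earlier results of these data known, so they are no independent check on the members. Of 29 further hydrolases tested 27 were lower at P24 and 1 was higher, beside 43.7% and 14.6% of all genes, with a median of -1.46. The 1 that rose was the hyaluronidase Hyal2 (0.38). Of 28 further membrane proteins 21 were lower and 1 higher, with a median of -0.86. The channel Mcoln3, a relative of Mcoln1, fell from 265 ± 42.96 to 0.854 ± 0.124 TPM and Mcoln2 rose (0.71, from a range of 5.93 to 6.91 to one of 9.71 to 13.2 TPM), so the 3 mucolipin channels did not move alike.

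Of 17 subunits of the vacuolar proton pump tested 15 were lower and 2 higher, with a median of -1.24. The catalytic subunit Atp6v1a fell from 101 ± 17.4 to 24.8 ± 2.34 TPM, while the membrane subunit Atp6v0a2 rose from 41.2 ± 6.48 to 86.1 ± 8.01 TPM (a log2 fold change of 1.05, SE 0.12, limma adjusted p = 2.28e-05). Among 18 genes of sorting to the lysosome 14 were lower and 1 higher, with the adaptor Gga2 falling furthest (-3.39) and the receptor Sort1 rising (0.68). Of 21 genes of nutrient sensing and MiT/TFE regulation 16 were lower and 1 higher. Their median was -0.48, beside -0.25 over all genes, so the genes named next fell much further than most of the list. Tfec, named above, fell furthest and the 14-3-3 protein Ywhaz rose (0.49). The GTPase Rragd, which takes part in the control of TFEB by mTORC1, fell from 69.00 ± 12.7 to 5.17 ± 1.24 TPM, and folliculin (Flcn) from 45.9 ± 7.38 to 8.54 ± 1.93 TPM. The cytosolic cathepsin inhibitor Cstb fell from 675 ± 28.01 to 117 ± 6.67 TPM. Of the 5 cathepsin inhibitors tested 2 were lower and 1 higher (Serpinb1a, 0.74), near the 43.7% and 14.6% of all genes. Of 12 genes known from suckling enterocytes 10 were lower and 1 higher, with the endocytic protein Mamdc4 going from 1092 ± 167 to 2.71 ± 0.424 TPM.

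Markers of the cell types in whole ileum moved in several directions between the same ages. Of 10 epithelial markers 6 were higher, most of all Krt20 (4.37), and 2 lower, most of all Alpi (-1.99), and their summed level was 7615 to 9716 TPM at P14 and 17622 to 23131 TPM at P24. Of 6 ileum markers 5 were higher, led by the bile acid transporter Slc10a2 (6.27), and Guca2b was lower (-0.49). Of 8 B and plasma cell markers tested 3 were higher and 0 lower (Igha, 3.46), and of 9 T cell and innate lymphoid markers 3 were higher and 1 lower. Of 10 fibroblast and smooth muscle markers 1 was higher (Des, 0.94) and 5 lower (Col1a1, -1.13), and of 8 endothelial markers 7 were lower (Cdh5, -0.92). Over all genes 43.7% were lower and 14.6% higher, so the fibroblast and smooth muscle counts lay near the shares of all genes. The part of these cell types in the members' values was not tested.

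The second comparison asks what injected interleukin-22 changed before weaning age. After rmIl22, 7 of the 40 members were lower than after PBS, beside 2.25% of all 14456 genes tested, and none was higher, beside 0.443%. No member passed as higher at an unadjusted p under 0.05 in limma either, or with limma voom on recovered reads. The median log2 fold change was -0.54 over the members and -0.05 over all genes. The groups did not overlap for 26 members that were lower, beside 15.4% of all genes, and for none that was higher, beside 5.62%. The 7 were Ctsh, Tfeb, Tpp1, Hexa, Ctsb, Arsa and Lamp2.

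Ctsh, the aminopeptidase, measured 87.3, 92.7 and 118 TPM after PBS and 36.6, 46.2 and 40.003 TPM after rmIl22 (a log2 fold change of -1.25, SE 0.15, limma adjusted p = 0.0129). Tfeb measured 16.8, 14.5 and 19.6 TPM and then 8.79, 8.21 and 7.84 TPM (a log2 fold change of -0.95, SE 0.13, limma adjusted p = 0.0192). Tpp1 measured 104, 92.2 and 112 TPM and then 56.5, 68.6 and 57.2 TPM (a log2 fold change of -0.75, SE 0.13, limma adjusted p = 0.0302). In these 3 genes the rmIl22 libraries lay close together and far below the lowest PBS library. Hexa measured 1462, 1241 and 1397 TPM after PBS and 630.4, 894 and 689.7 TPM after rmIl22 (a log2 fold change of -0.90, SE 0.17, limma adjusted p = 0.0418). Ctsb measured 1027, 906 and 1075 TPM and then 484, 674 and 540.5 TPM (a log2 fold change of -0.83, SE 0.16, limma adjusted p = 0.0462). Both had their highest rmIl22 value in library 2 and still no overlap. Arsa measured 40.1, 28.5 and 40.1 TPM and then 20.5, 21.6 and 18.98 TPM (a log2 fold change of -0.78, SE 0.15, limma adjusted p = 0.0483). Lamp2, which lies on the X chromosome, measured 119, 110.3 and 129 TPM and then 78.4, 85.4 and 81.1 TPM (a log2 fold change of -0.54, SE 0.11, limma adjusted p = 0.0498).

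The largest fold change among the members did not pass. Ctsl measured 2277, 2389.8 and 4165 TPM after PBS and 363, 1224 and 631 TPM after rmIl22, without overlap but with a wide spread (a log2 fold change of -2.11, SE 0.45, limma adjusted p = 0.0592). Lgmn measured 5258, 4294 and 4948 TPM and 1848, 4163 and 2549 TPM (a log2 fold change of -0.84, SE 0.30, limma adjusted p = 0.231). Ctsz measured 1528, 1581 and 1992 TPM and 551, 1097 and 652 TPM (a log2 fold change of -1.20, SE 0.27, limma adjusted p = 0.0669). In all 3 proteases library 2 was the rmIl22 library nearest to the PBS values. Lamp1 measured 1480.1, 1380.1 and 1622 TPM and 915, 999 and 897 TPM (a log2 fold change of -0.67, SE 0.13, limma adjusted p = 0.0515). Tfe3 measured 4.59, 3.72 and 4.55 TPM and 4.05, 4.07 and 3.85 TPM (a log2 fold change of -0.08, SE 0.13, limma adjusted p = 0.86), so the family's members again differed in size. As percentages of the PBS mean, Glb1 was 34.7, 96.1 and 41.4 and Gusb 41.1, 105 and 46.7 in rmIl22 libraries 1 to 3. Some members were instead alike in all 3 libraries, such as Ctsd (70.04, 70.8 and 70.5), Sgsh (71.3, 72.2 and 70.00) and Npc2 (74.1, 72.1 and 71.6).

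**Figure D4:**
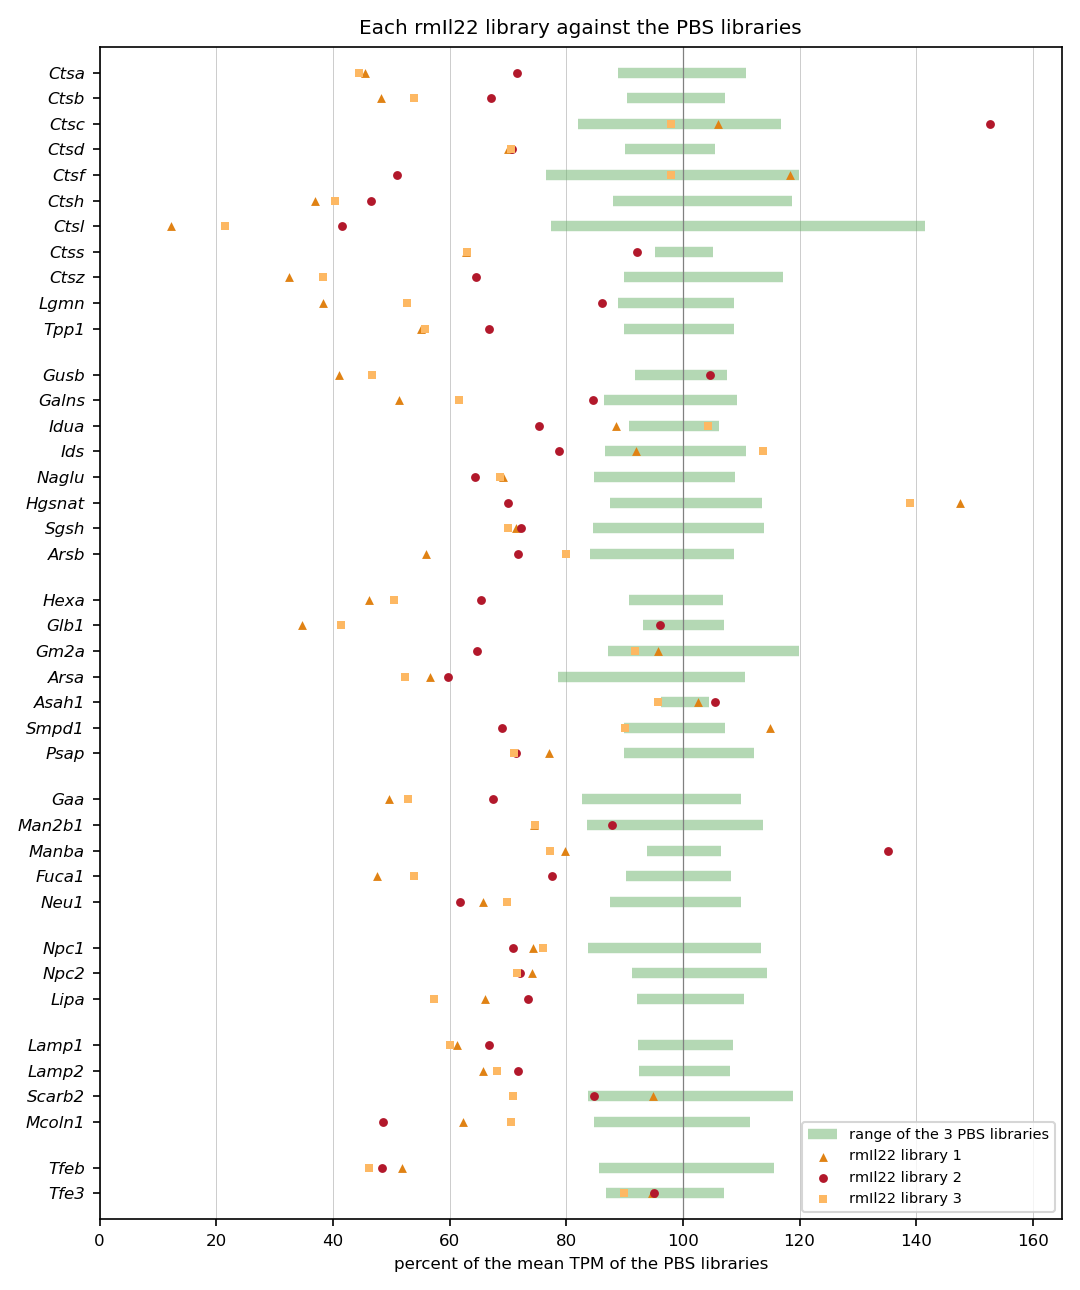
Each rmIl22 library as a percentage of the mean TPM of the PBS libraries, per member, with bars for the range of the PBS libraries. Library 2 is the highest of the 3 for 25 of 40 members, and 31, 32 and 32 members lie below all PBS values in libraries 1, 2 and 3, beside 29.8%, 52.1% and 35.9% of all genes.

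The count of 7 depended on single libraries, as did the share of all genes called. Counts below without such a share describe the fit and are not read as results about the members. Without rmIl22 library 2 there were 21 members lower and 0 higher (5.64% and 3.24% of all genes), and without rmIl22 library 1 or 3 there was 1. With all 14 libraries in 1 fit 19 were lower and 0 higher (5.13% and 1.48%). Without PBS library 1 or 3 there were 0 by adjusted p in limma. By adjusted p, 0.0202% of all genes were lower and 0.00672% higher without PBS library 3. In each of these fits 21 members were lower at an unadjusted p under 0.05 in limma, a count with no share of all genes beside it. Without PBS library 2 there were 3 by adjusted p. With the sex-linked transcripts as a covariate 2 were lower and 0 higher, beside 0.553% and 0.291% of all genes, and here the contrast within sex-linked class rests on rmIl22 library 1. That library, whose sex-linked transcripts were those of the PBS libraries, had 31 members below all PBS values, beside 29.8% of all genes, and a median log2 difference from the PBS mean of -0.60. On median-scaled TPM and after quantile normalisation 2 were lower (1.57% of all genes lower and 0.498% higher on median-scaled TPM), and quantile normalisation gave 80 genes higher and 202 lower over all genes in place of 64 and 325. The macrophage and dendritic cell markers summed to 609.6 to 678 TPM in the PBS libraries and 417 to 773 TPM in the rmIl22 libraries, and their part in these results was not tested. The authors' deposited table for this comparison, which lists only genes with an adjusted p under 0.01, held 18 of the members, all lower (log2 fold changes -1.89 to -0.41), beside 4.88% of the genes tested here.

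Among other lysosomal genes all calls were lower. Over all genes tested 2.25% were lower and 0.443% higher. Without PBS library 3, only 3 of 14879 genes passed as lower, so the calls in this paragraph depend on single libraries too. Of 30 further hydrolases tested 4 were lower. Of 28 further membrane proteins 7 were lower, led by Tmem9 (105 ± 8.27 to 36.6 ± 10.9 TPM, a log2 fold change of -1.53, SE 0.20, limma adjusted p = 0.0168) and including Mcoln3, the cystine exporter Ctns and Cln3. Of 17 proton pump subunits 1 was lower, Atp6v1c1 (a log2 fold change of -0.61, SE 0.11, limma adjusted p = 0.0412). Gga2 (a log2 fold change of -1.74, SE 0.19, limma adjusted p = 0.0113), Tfec (a log2 fold change of -0.99, SE 0.18, limma adjusted p = 0.0412), Flcn (a log2 fold change of -0.71, SE 0.11, limma adjusted p = 0.0248) and Cstb (a log2 fold change of -0.89, SE 0.16, limma adjusted p = 0.0382) were lower too. Of 12 suckling enterocyte genes 2 were lower, Amn and Folr1 (-1.36), and of 6 ileum markers 1 was higher, Slc51b (0.91). Of 19 macrophage and dendritic cell markers Cd14 was higher (1.60) and Csf1r lower (-1.16). No call was made among the epithelial, B cell, T cell, fibroblast or endothelial markers in limma.

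Untreated P14 and PBS libraries were set side by side to place the injected controls, which were also older by the stated protocol, so that age and injection cannot be told apart. Only Ctsc passed, with 23.9 ± 2.69 TPM at P14 and 36.3 ± 6.32 TPM after PBS (a log2 fold change of 0.57, SE 0.14, limma adjusted p = 0.0439), beside 2.92% of all 14782 genes higher. Without overlap 3 members were higher (Ctsb, Ctsc and Ctss, beside 9.02%) and 0 lower (beside 7.56%). No member was lower by limma, beside 1.41% of all genes, with 1 at an unadjusted p under 0.05 and 2 by limma voom. The log2 differences ran from -0.57 for Npc2 to 0.57 for Ctsc, and their median, 0.04, turned to -0.05 after quantile normalisation and -0.07 with voom, which gave 656 genes higher and 1602 lower over all genes in place of 431 and 209. The call for Ctsc was lost without P14 library 1, 2 or 5 or PBS library 2 or 3.

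Both effects were then compared. The log2 fold change between P14 and P24 was lower than that after rmIl22 for 29 members, beside 17.3% of 15702 genes tested for the difference of both effects in limma, and 10 did not pass. Ctsc was the 1 member with a higher difference, beside 6.51% of all genes (a difference of 0.80, SE 0.23, limma adjusted p = 0.0216), and this call was lost without PBS library 2 or rmIl22 library 1 or 3. On median-scaled TPM, 2190 of all genes were higher and 2159 lower in this difference, in place of 1022 and 2712. The widest gaps were those of Lgmn (a difference of -4.23, SE 0.32, limma adjusted p = 1.14e-06), Galns (a difference of -2.93, SE 0.26, limma adjusted p = 4.14e-06) and Ctsa (a difference of -2.91, SE 0.24, limma adjusted p = 2.25e-06). For Tfeb the difference was smaller (a difference of -0.81, SE 0.19, limma adjusted p = 0.00944). Ordered by group means, P24 was lowest for 36 members (59.1% of the 15702 genes) and rmIl22 next for 34 of these (34.9%). In 19 of the 34 the P24 values did not overlap those of rmIl22, nor the rmIl22 values those of the group above (5.78% of the 15702 genes).

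**Figure D5:**
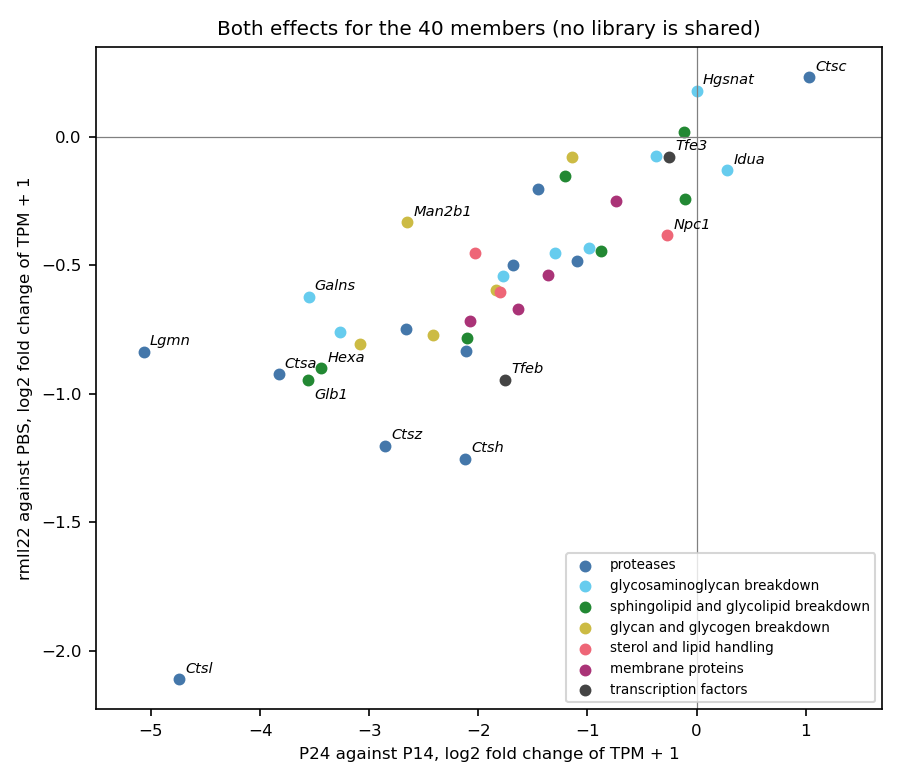
Log2 fold change of TPM + 1 for rmIl22 against PBS plotted against that for P24 against P14, with 1 point per member coloured by role. Members with a large fall by age tend to lie low on the vertical axis too (Spearman 0.86 over 40 members), with Ctsl at the lower left and Ctsc at the upper right.

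Across the 40 members the size of both effects ran together, with a Spearman correlation of 0.86 and a Pearson correlation of 0.80. Over the 14161 genes tested in both comparisons these were 0.41 and 0.55. Both effects also ran with expression level. The members' fold changes after rmIl22 had a Spearman correlation of -0.63 with their P14 level (-0.27 over all 14456 genes). For the age fold changes and the PBS level it was -0.66 (-0.05 over all 14651 genes). The part of level in the correlation between both effects was not tested. The comparisons share no library, but the 40 points share the libraries within each and are no replicates, so no p is given. The balance of both effects varied among members. Lgmn had a log2 fold change of -5.07 with age and -0.84 after rmIl22, and Man2b1 had -2.65 and -0.33. Ctsh had -2.12 and -1.25, and Tfeb -1.76 and -0.95. The 6 members that did not pass by age, Asah1, Gm2a, Idua, Hgsnat, Npc1 and Tfe3, had values from -0.38 to 0.18 after rmIl22.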

How the data were processed

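RNA-seq of whole ileum gave 14 libraries in 4 groups, taken from the sample titles. Per the labels' protocols, libraries were made from total RNA after ribosomal RNA removal with a stranded kit. The submitters' processing notes name FastQC 0.11.2, STAR 2.4.0f, HTSeq 0.6.1p1, DESeq2 1.14 and the mouse build mm10. No source used here gives the strand setting or annotation release. The authors deposited a table of TPM values and 2 tables of their own comparisons with log2 fold changes and adjusted p-values. Whole reads were recovered from the TPM values (tolerance 0.01) as an alternative. The recovered totals, 35.6 to 46.5 M reads in genes, limit precision little, since every member held at least 171 reads in each library.

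Of 46882 entries, 27 with date-like names were left out (at most 0.078% of TPM in a library). TPM was transformed to log2(TPM + 1), so a fold change understates that of low genes. Genes with at least 1 TPM in as many libraries as the smaller group holds were fitted with limma 3.58.1 (R 4.3.3, intensity trend, two-sided), each comparison on its own groups and the difference of both effects on all 4 groups. Benjamini-Hochberg adjustment ran over every gene tested, and 0.05 was the threshold. Each p-value weighs a difference against the variation between libraries as limma estimates it. The origin of replicates is given only as biological, so their independence as animals was assumed. Ratios are of mean TPM. The code was tested on simulated data.

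The members and lists were chosen with earlier results of these data known. Per-library values were given for the 3 largest called age changes in each role, the called members after rmIl22 (up to 10), the 5 most abundant members, Tfeb and Tfe3, and for each other list the largest called rise and fall. Ctsc, Ctns, Cln3, Rragd, Flcn and Amn were named after their values were seen. Some genes of the other lists are not reported here by name. Per the file headers, the libraries of P14 and P24 carry numbers that are not matched to replicate numbers in the labels. For same-numbered PBS and rmIl22 libraries, the correlation of their deviations from the group means was -0.067, 0.333 and -0.049. Differently numbered libraries had -0.338 to 0.405, and with 3 libraries a group this check cannot show or exclude pairing. The numbers were not taken as pairs because nothing says that they mark a litter or day. Promoter windows are RefSeq's (GRCm38.p6) and gene positions GENCODE vM21's (GRCm38). Alternatives were other filters, a pseudocount, other scalings, no trend, all libraries in 1 fit, a replicate block, voom on recovered reads, sex-linked transcripts as a covariate (chosen after seeing the data) and leaving out each library.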

Additional observations from a re-analysis of the deposited data

Results flagged for a closer look

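Of 82 groups of 4 values tested (a member's TPM or the summed TPM at P14 or P24), 6 held a library far from the other 3 by a gap test at the 95% level, and chance flags about 1 in 20 such groups. In each the library was the highest of its group. Ctsc measured 59.5 TPM in P24 library 2, against 45.5 to 47.8 TPM in the other P24 libraries. Ids measured 6.99 TPM in P24 library 8, against 6.37 to 6.45 TPM. Npc2 measured 88.4 TPM in P24 library 1, against 80.2 to 81.2 TPM. Scarb2 measured 65.5 TPM in P14 library 4, against 44.8 to 47.5 TPM, and 32.1 TPM in P24 library 8, against 29.1 to 29.4 TPM. Tfe3 measured 3.84 TPM in P24 library 2, against 3.55 to 3.58 TPM.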

How the results depend on the processing

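The count of falls with age moved little: 32 to 35 members were lower at P24 in every alternative, and 32 of the 33 calls were kept in all of them, with Ids the exception. The count of members higher at P24, 1, was 3 on median-scaled TPM, 2 after quantile normalisation, 2 with all 14 libraries in 1 fit, 2 without the intensity trend, 2 with voom and 1 to 2 when a library was left out. The count of 7 lower after rmIl22 became 1 with no filter, 12 with a minimum of 5 TPM, 2 on median-scaled TPM, 2 after quantile normalisation, 19 with all 14 libraries in 1 fit, 2 with sex-linked transcripts as a covariate and 0 to 21 when a library was left out. With the replicate number of PBS and rmIl22 libraries as a block it was 2. The share of all genes called lower after rmIl22 moved too, from 0.0202% without PBS library 3 to 5.64% without rmIl22 library 2. Counts in this section without a share over all genes describe the fits and are not read as results about the members. None of the 7 calls was kept in every alternative, and no direction was reversed. No paired analysis was possible for P24 against P14 because the columns of these groups carry no replicate numbers from the labels. Between P14 and PBS, members lower (0) numbered 1 with a minimum of 5 TPM, 1 after quantile normalisation, 1 with all libraries in 1 fit, 2 with voom, 1 with the covariate and 0 to 1 by leaving out a library. Members higher (1) numbered 0 with no filter, 2 on median-scaled TPM, 0 after quantile normalisation, 0 with all libraries in 1 fit, 0 without the trend, 3 with voom, 0 with the covariate and 0 to 1 by leaving out a library. The difference of both effects, with 1 member higher, gave 2 on median-scaled TPM, 2 after quantile normalisation, 2 with voom and 0 to 2 by leaving out a library, and 27 of its 29 lower calls were kept in all alternatives. Leaving out a library, members without overlap numbered 1 to 2 higher at P24 (13.3% to 15.9% of all genes), 0 to 1 higher after rmIl22 (7.18% to 19.0%), and 0 to 6 lower (7.95% to 18.6%) and 3 to 6 higher (9.66% to 14.9%) in PBS against P14. The 6 lower came without P14 library 5 and the 6 higher without PBS library 2. The summed ratio of P24 to P14 was 0.208 without Lgmn. The share of windows was 7.5% for TCACGTGA and 0% for the 10-base palindrome. The causes were not tested. With 3 libraries a group, 1 of them apart from the others, and sex-linked transcripts uneven, single calls after rmIl22 are uncertain.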
